A study of Homo sapiens with 8 samples.

Results

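The genes described here are the well-expressed ZNF genes of RPMI-8402, a human cell line grown from a T-cell acute lymphoblastic leukaemia. They were chosen by their wild-type level: a gene was included when its symbol was ZNF followed by digits alone and its mean over the 4 wild-type clones was at least 10 CPM, which is counts scaled to a library total of 1000000. The rule took 198 of the 476 ZNF symbols considered, in a table of 61228 genes. RNA sequencing covered 4 clones labelled as NKX2-1 knockout (C12, C15, S04 and S36) and 4 wild-type clones (WT10, WT13, WT28 and WT30), all of RPMI-8402 and all untreated. Each library is thus 1 clone of a single cell line, and a p-value measures only the spread between these clones. What kind of edit was made in NKX2-1, and what the letters C and S stand for, is not stated in the labels.

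ZNF genes are named for the C2H2 zinc finger, a short loop held around a zinc ion by 2 cysteines and 2 histidines, which reads a few bases of DNA or, in some proteins, binds RNA or another protein. Many of them also carry a KRAB box, which recruits the corepressor TRIM28 and through it histone methylation and silencing, often of transposable elements, and a large share of these genes lie in clusters on chromosome 19. NKX2-1 is a homeobox transcription factor of thyroid and lung that is switched on ectopically in some T-cell leukaemias, and the question of the study was which transcripts differ once it is knocked out.

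The promoters of a pair of these genes whose knockout clones all lay above the wild-type clones are shown for orientation, from RefSeq on build GRCh38.p14, as 250 bases before to 50 bases after the gene's start. Capitals mark matches, on either strand, to 3 motifs that were searched. They were CAAGTG, the core bound by NKX2-1, then TGTGGT, the core bound by RUNX factors, and the longer ZNF143 motif. The first promoter is that of ZNF189, chr9:101398601-101398900, plus strand, and the second that of ZNF302, chr19:34677428-34677727, plus strand.
ZNF189: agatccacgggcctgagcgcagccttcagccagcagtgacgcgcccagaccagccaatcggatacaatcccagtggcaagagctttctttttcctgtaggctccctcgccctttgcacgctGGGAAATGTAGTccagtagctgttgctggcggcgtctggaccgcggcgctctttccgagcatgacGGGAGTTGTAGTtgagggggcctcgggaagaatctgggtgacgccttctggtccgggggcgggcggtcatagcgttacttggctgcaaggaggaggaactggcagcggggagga
ZNF302: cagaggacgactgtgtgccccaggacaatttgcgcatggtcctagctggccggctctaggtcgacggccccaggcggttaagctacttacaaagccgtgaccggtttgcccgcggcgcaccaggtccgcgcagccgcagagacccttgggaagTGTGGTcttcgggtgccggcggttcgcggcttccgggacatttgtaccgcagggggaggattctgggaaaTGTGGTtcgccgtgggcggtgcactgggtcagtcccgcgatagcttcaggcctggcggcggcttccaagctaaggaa
The ZNF189 window held 2 matches to the ZNF143 motif and the ZNF302 window 2 matches to the RUNX core, and matches of different motifs did not overlap in these windows. Of the 198 genes, 174 had a promoter in the RefSeq table. The NKX2-1 core was in 10 of these 174 (5.75%), against 11.5% of all 27305 promoters of the same length, and the RUNX core was in 17 (9.77%), against 13.1%. The ZNF143 motif was searched only after its letters had been noticed in the ZNF189 promoter, and the form searched allows both matches there. It was in 16 of 174 (9.20%), against 1.26% of all promoters, with 11 of 104 among genes with a KRAB box and 5 of 68 among those without. All promoters, the background for each of the 3 motifs, include those of genes with too few counts to be tested here. Among promoters of other genes that were tested, 254 had the ZNF143 motif and 9188 did not. Promoters of genes of similar level were not compared. The median log2 fold change of knockout over wild type was 0.04 for the 16 genes with this motif and 0.05 for the 158 without. A match describes letters in this window and is not a measured binding site.

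Together the 198 genes took 0.776%, 0.702%, 0.832% and 0.828% of the counts in C12, C15, S04 and S36, and 0.730% to 0.767% in the wild-type clones. C15 and C12 had the smallest and largest libraries, with 2730285 and 25423215 counts, and the others had 12344549 to 22916424. The median count of the 198 genes was 56 in C15, where the lowest was 6 (ZNF503), against 318 to 579 in the other 7 clones. NKX2-1 itself had 73.4, 10.3, 90.3 and 35.4 CPM in C12, C15, S04 and S36, against 57.4, 60.7, 51.9 and 53.4 CPM in WT10, WT13, WT28 and WT30. C12 and S04 thus lay above every wild-type clone and C15 and S36 below, so the RNA level of the gene is no check of the knockout label. The summed level of 10 T-lineage markers was 1729 to 1917 CPM in knockout clones and 1635 to 1926 CPM in wild-type clones. Within that sum, CD5 had 33.7 to 75.5 CPM in knockout clones and 86.3 to 112 CPM in wild-type clones, and CD7 1.38 to 4.11 and 5.50 to 6.67 CPM, without overlap. Of all genes tested, 4.51% were lower without overlap. The rest of the 10 markers overlapped, among them LCK at 296 to 384 CPM in knockout and 270 to 318 CPM in wild-type clones. Markers of other lineages were lower. The summed level of 5 B-lineage markers was 6.96 to 14.5 CPM in knockout clones and 9.91 to 16.2 CPM in wild-type clones, and that of 4 fibroblast markers, nearly all of it COL1A1, 6.56 to 14.99 and 12.5 to 20.4 CPM. For 4 erythroid markers, nearly all of it EPOR, it was 2.51 to 7.50 CPM in knockout and 6.03 to 8.24 CPM in wild-type clones, for 5 myeloid ones at most 1.11 and 0.228 CPM, and for 4 epithelial ones at most 0.587 and 0.0542 CPM. Their part in the results below was not tested. MS4A1, CD33, LYZ, HBB, EPCAM, COL1A2 and COL3A1 were at 0 in all 8 clones. The share of counts on mitochondrial genes was 14.8%, 21.2%, 18.5% and 16.8% in C12, C15, S04 and S36, against 12.9% to 15.1% in wild-type clones, and its part in the results below was not tested.

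Levels among the 198 genes followed from the rule at the low end and ranged up to 549 CPM in wild-type clones, with a median of 21.8 CPM. Levels were also divided by exon length, taken as the union of all annotated exons of a gene. That length can far exceed a single transcript, so the order of genes depends on it. For ZNF207 it was 15834 bases, where the transcript used for GC content had 2283. On this scale ZNF428 was the highest at 284 CPM per kb in knockout clones and 304 in wild-type clones. ZNF395 followed at 52.0 and 44.1 CPM per kb, ZNF22 at 43.7 and 37.2, ZNF281 at 25.1 and 23.4, and ZNF24 at 20.99 and 22.04. ZNF281 is a regulator of pluripotency genes with a role in DNA repair, and ZNF24 is a repressor that carries a SCAN domain. ZNF428 had 546, 622, 231 and 650 CPM in C12, C15, S04 and S36, against 560, 491, 548 and 595 CPM in WT10, WT13, WT28 and WT30. S04 alone was far below the rest, and the groups overlapped. Exons of ZNF428 overlap SRRM5 on the other strand and those of ZNF395 overlap FBXO16 on the same strand, and since the strand setting of the counting is unknown, the reads of both partners may be mixed. Such an overlap exists for 97 of the 198 genes, 49 of them with a gene on the same strand.

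Just inside the threshold stood ZNF486, with a mean of 20.2 CPM in knockout and 10.1 CPM in wild-type clones, ZNF700 with 9.13 and 10.2 CPM, and ZNF765 with 10.9 and 10.2 CPM. Just outside were ZNF701 with 15.6 and 9.94 CPM, ZNF276 with 9.44 and 9.79 CPM, and ZNF329 with 8.88 and 9.77 CPM. Applied to knockout clones instead, the same level would have taken 206 genes, of which 193 were shared with the 198, so that 13 passed in knockout clones only and 5 in wild-type clones only. Those 5 were ZNF746, ZNF696, ZNF16, ZNF503 and ZNF700.

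ZNF827 was the 1 gene of the 198 that passed the test between knockout and wild-type clones, and it fell to 0.452 times its wild-type level. The protein is known in human cells for bringing the NuRD remodelling and deacetylase complex to DNA, including to telomeres that are kept by recombination. Its level was 40.2, 48.0, 41.6 and 45.9 CPM in C12, C15, S04 and S36, against 102, 90.7, 96.6 and 85.9 CPM in WT10, WT13, WT28 and WT30. All 4 knockout clones lay close together, and the highest of them was well under the lowest wild-type clone. The means were 43.9 ± 3.63 CPM in knockout clones and 93.9 ± 7.19 CPM in wild-type clones (SD, n = 4 each). The log2 fold change was -1.15 with a standard error of 0.14, at an adjusted p of 0.0161 in the edgeR quasi-likelihood test with Benjamini-Hochberg adjustment over 14243 genes. An exact two-sided permutation test of this gene's level gave p = 0.0286, the smallest that 70 assignments of 4 against 4 clones allow. Groups that do not overlap always give this p. The gene was picked from these same clones, so the permutation test adds no separate support. In these bulk libraries, fewer cells with the transcript and less of it per cell cannot be told apart.

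The call of ZNF827 did not hold for every choice of clones. Without WT10, WT13, WT28 or WT30 its log2 fold change was -1.13, -1.16, -1.13 and -1.19, with edgeR adjusted p of 0.0945, 0.0972, 0.0920 and 0.075. The share of all genes called in these fits is not given here. A loss of calls across all genes thus cannot be told apart from one of this gene. With C12 and C15 alone against wild type it was -1.10 at an adjusted p of 0.0625, where 0.0395% of all genes were called. With S04 and S36 alone it was -1.24 at 0.00226, where 14.5% were called. The gene lies at chr4:145757627-145938635 on the minus strand in GENCODE release 29 on hg38 (ENSG00000151612.15), its exons overlap no other gene, and its coding sequence holds 9 matches to the finger pattern and none to the KRAB box. Of its 8 tested neighbours within 1 Mb, 0 passed by edgeR, DESeq2 or limma-voom, where 0.316%, 3.66% and 0.66% of all genes passed. At an unadjusted edgeR p under 0.05, 1 neighbour was higher and 1 lower, where 8.47% and 6.99% of all genes were. The median log2 fold change of the 8 was 0.03. SMAD1, a signal transducer of bone morphogenetic proteins, was at -0.03, OTUD4 at 0.10 and LSM6 at 0.04, while SLC10A7 stood at 0.59 and TTC29, below 1 CPM in both groups, at -1.97.

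**Figure D1:**
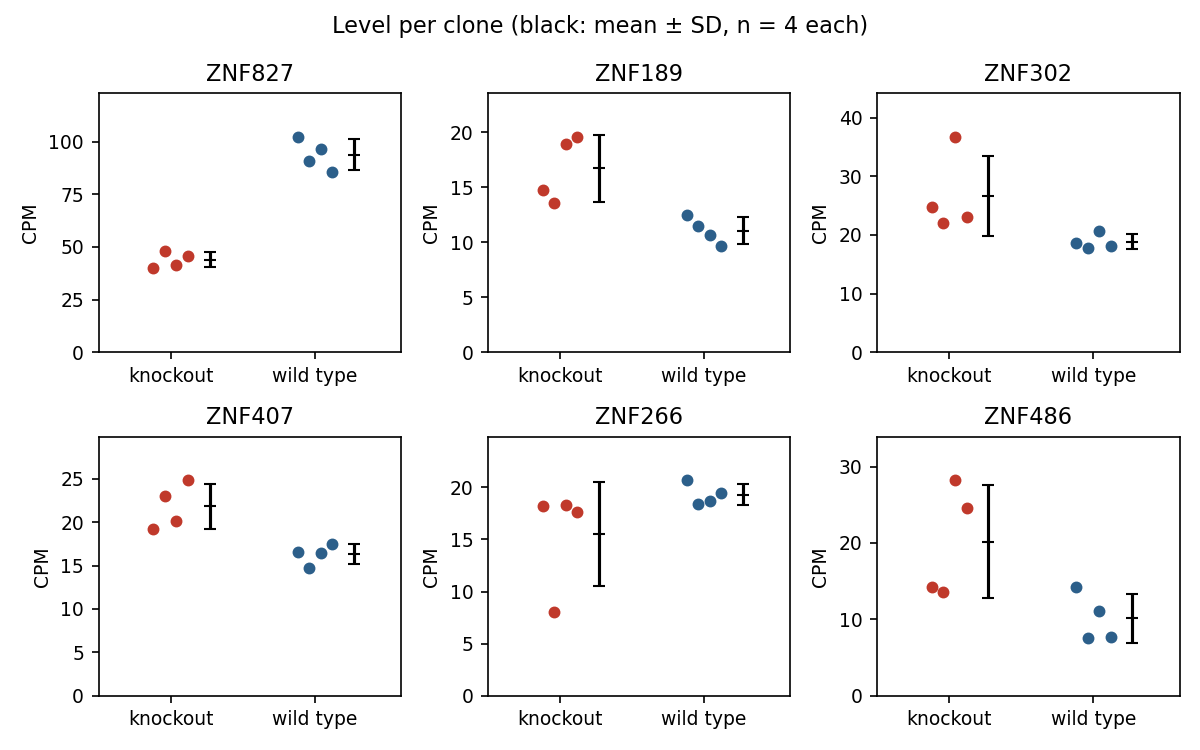
Level in CPM of 6 ZNF genes in each knockout clone (red, left) and wild-type clone (blue, right), with the mean and SD of 4 clones in black. ZNF827 sits at 40.2 to 48.0 CPM in knockout clones and at 85.9 to 102 CPM in wild-type clones, and ZNF486 shows the overlap of C12 and C15 with WT10.

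Against that 1 call (0.505% of the 198 genes), 0.316% of all 14243 genes tested passed, with 20 higher (0.14%) and 25 lower (0.176%) in knockout clones, so the share of ZNF genes lies near that of the whole table. No ZNF gene of the 198 passed as higher. At an unadjusted p under 0.05, edgeR gave 10 higher and 4 lower (5.05% and 2.02%), where 8.47% and 6.99% of all genes were called. DESeq2 called 2 of the 198, ZNF827 and ZNF486, where 3.66% of all genes passed, and limma-voom called ZNF827, where 0.66% passed. Without the filter on low counts edgeR called ZNF827 and ZNF486, where 1.85% of genes passed. The changes were small in size. A log2 change of at least 0.5 either way was seen in 9 of the 198 genes (4.55%), where 24.3% of all genes and 12.3% of the 7583 genes with at least 10 CPM in wild-type clones reached it. A change of at least 2-fold was seen in ZNF827 alone, where 6.53% of all genes and 1.58% of genes of that level reached it. The median log2 fold change was 0.05, with 122 genes above 0 and 76 below, beside a median of 0.02 over all genes and -0.01 over genes of that level.

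**Figure D2:**
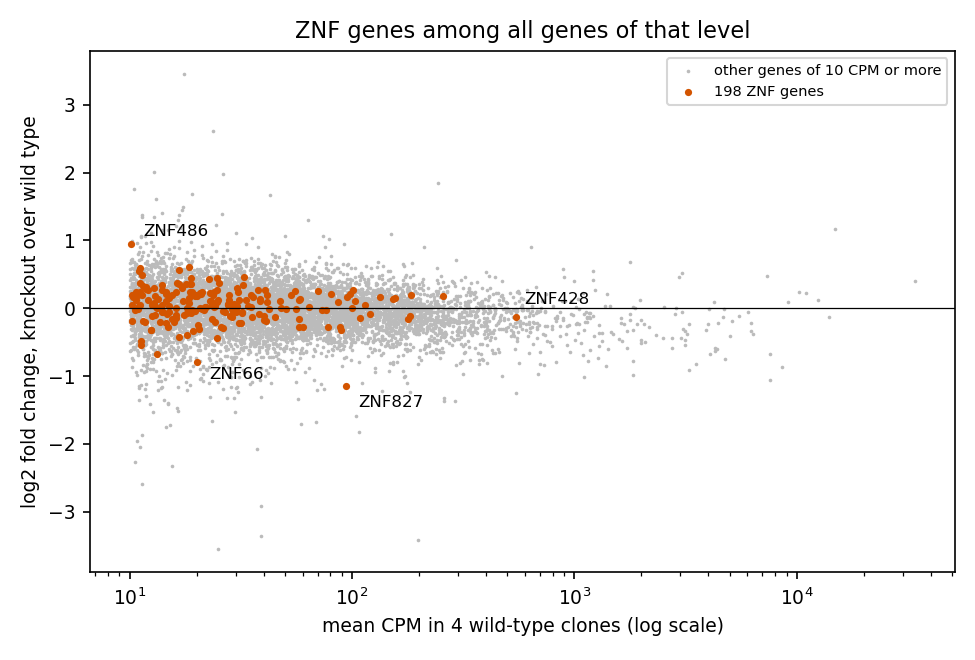
Log2 fold change of knockout over wild type against the mean CPM of 4 wild-type clones (log axis), for the 198 ZNF genes (orange) and the other genes of at least 10 CPM (grey). Most of the ZNF genes lie within 0.5 of 0, ZNF827 at -1.15 and ZNF486 at 0.95 being the extremes.

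Groups that did not overlap in CPM were found for 9 of the 198 genes. In 7 of them the knockout clones were higher (3.54%, where 4.98% of all genes were) and in 2 lower (1.01%, where 4.51% were). After scaling by TMM factors, which adjust for library composition, 5 were higher (where 4.42% of all genes were) and 4 lower (where 5.62% were), and ZNF827, ZNF189, ZNF407, ZNF302 and ZNF266 were in both sets. ZNF189, which has 16 finger matches and a KRAB box, had 14.7, 13.6, 18.97 and 19.6 CPM in C12, C15, S04 and S36, against 12.5, 11.5, 10.6 and 9.64 CPM in WT10, WT13, WT28 and WT30. Both S clones were the highest, and the lowest knockout clone, C15, was just above WT10. Its log2 fold change was 0.55 ± 0.17 (SE), with an edgeR adjusted p of 0.187. ZNF189 and ZNF618, another of the 7 higher in CPM, lie on chromosome 9. There 119 of 449 tested genes were higher without overlap in CPM.

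ZNF302, another gene with a KRAB box, had 24.8, 21.98, 36.8 and 23.1 CPM in C12, C15, S04 and S36, against 18.7, 17.8, 20.7 and 18.2 CPM in WT10, WT13, WT28 and WT30. S04 stood out among the knockout clones, and C15 was only slightly above WT28. ZNF407, a long protein with 23 finger matches, had 19.3, 23.1, 20.1 and 24.9 CPM in C12, C15, S04 and S36, against 16.5, 14.8, 16.4 and 17.5 CPM in the wild-type clones in the same order as above. Their log2 fold changes of 0.45 and 0.37 had edgeR adjusted p of 0.264 and 0.322. ZNF618, a partner of the methylated-DNA reader UHRF2, was at 0.46, ZNF414 at 0.28, ZNF891 at 0.25 and ZNF275 at 0.15. None of these 7 passed the test of all knockout against all wild-type clones.

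ZNF266 was the other gene with all knockout clones lower, at 18.2, 8.06, 18.3 and 17.7 CPM in C12, C15, S04 and S36, against 20.7, 18.4, 18.7 and 19.5 CPM in WT10, WT13, WT28 and WT30. C15 alone was far below, at 22 counts, and the other knockout clones were just under WT13. Its log2 fold change was -0.34 with an edgeR adjusted p of 0.451. ZNF486, a KRAB zinc finger gene of chromosome 19, came nearest to the threshold after ZNF827, with a log2 fold change of 0.95 and an edgeR adjusted p of 0.160. It had 14.2, 13.6, 28.2 and 24.6 CPM in C12, C15, S04 and S36, against 14.3, 7.56, 11.1 and 7.64 CPM in WT10, WT13, WT28 and WT30. Only S04 and S36 were above every wild-type clone. ZNF486 is also the gene with the lowest wild-type mean that the rule let in.

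By role, 11 of the 198 genes were in the list of cofactors of corepressor and chromatin complexes and of known repressors of repeats and imprints, and apart from ZNF827 none passed the test. ZNF217, an oncogene of breast cancer that works with CtBP and CoREST, had 41.8 ± 11.99 CPM in knockout clones and 35.2 ± 4.75 in wild-type clones (SD, n = 4 each), with a log2 fold change of 0.19. ZNF644, which binds the histone methyltransferases G9a and GLP, had 118 ± 27.3 and 98.1 ± 5.24 CPM, at 0.21. ZNF91 and ZNF93, which silence SVA and LINE-1 elements in human cells, stood at 37.8 ± 8.19 CPM in knockout and 33.5 ± 1.53 CPM in wild-type clones for ZNF91, and at 38.3 ± 10.1 and 40.01 ± 1.97 CPM for ZNF93. ZNF445, a keeper of imprints, and ZNF335, part of a histone methylation complex needed for T-cell maturation, were at -0.02 and 0.03 on the log2 fold change scale. ZNF143, an activator that binds promoters, was at 0.20, ZNF146 at 0.25, ZNF462 at 0.09 and ZNF24 at -0.12.

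The 5 RNA-related genes ran from -0.15 to 0.20 on the log2 fold change scale. ZNF638, an RNA-binding protein that silences unintegrated retroviral DNA, was at -0.15, and ZNF207, which binds microtubules and the checkpoint protein BUB3, was at 0.20. ZNF326, part of a complex that links elongation to splicing, was at 0.14, ZNF106 at -0.09 and ZNF346, which binds double-stranded RNA, at 0.01. Of the 4 genes listed for DNA repair, ZNF281 was at 0.04, the SUMO ligase ZNF451 at 0.10, ZNF830 at -0.01 and ZNF506 at 0.32. Among 6 genes listed for lymphoid cells and leukaemia, ZNF521, a cofactor of blood progenitors, had 57.3 ± 17.2 CPM in knockout and 55.9 ± 4.30 CPM in wild-type clones. ZNF331, an imprinted gene, had 51.8 ± 5.05 and 50.4 ± 3.86 CPM, and ZNF148, which binds GC-rich promoters, 178 ± 12.02 and 156 ± 8.02 CPM (SD, n = 4 each). ZNF22 was at 0.16 and ZNF74 at -0.28. None of these genes passed the edgeR test.

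The partners of KRAB zinc finger proteins and related families gave 0 calls in either direction by edgeR and by limma-voom. Of 12 genes of the TRIM28 list, 7 were above 0 and 5 below, with a median log2 fold change of 0.10 beside 0.02 over all genes. TRIM28 itself was at 0.05, the H3K9 methyltransferase SETDB1 at 0.16, MORC3, an ATPase of heterochromatin, at 0.78, with an unadjusted edgeR p of 0.00354 and a call by DESeq2, and the maintenance DNA methyltransferase DNMT1 at -0.26. The medians were 0.16 for 5 genes of the HUSH silencing complex, 0.06 for 13 genes of NuRD, the partner complex of ZNF827, 0.10 for 8 genes of CtBP and CoREST, and -0.10 for 3 genes of the G9a complex. EHMT1 of that complex, which lies on chromosome 9, was at 0.79 with an edgeR adjusted p of 0.116, and DESeq2 called it. Other zinc finger families had medians of 0.12 (17 ZFP genes), 0.20 (33 ZBTB genes), 0.06 (18 ZSCAN and ZKSCAN genes), 0.05 (16 KLF and SP genes) and 0.16 (5 IKZF genes). IKZF1, the lymphoid factor Ikaros, was at -0.57 with an edgeR adjusted p of 0.152, and DESeq2 called it. DESeq2 also called ZBTB26, ZBTB43, ZBTB7C and ZFP41, where 3.66% of all genes passed. At an unadjusted edgeR p under 0.05 stood 8 ZBTB genes, all higher, 3 ZFP genes, and at most 2 of each other list in this paragraph, where 8.47% of all genes were higher and 6.99% lower. On chromosome 9, 154 of 449 tested genes were higher at that p, with a median log2 fold change of 0.37. Genes of that chromosome were not set apart in these lists. Without C12, edgeR called 1 gene of the G9a list and 3 ZBTB genes, where 3.13% of all genes were called.

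The 198 genes varied more among knockout clones than among wild-type clones. The SD of log2 CPM had a median of 0.32 over knockout clones and 0.11 over wild-type clones, and 186 of the 198 genes (93.9%) were wider in knockout clones, beside 88.9% of all genes tested and 92.8% of genes of at least 10 CPM. With all libraries thinned to the size of C15, the median SD was 0.33 over knockout clones and 0.18 over wild-type clones. Then 80.8% of the 198 genes were wider in knockout clones, beside 83.2% of all genes that could be measured and 86.4% of genes of at least 10 CPM. Each wild-type clone is part of the wild-type mean, which by itself makes its differences from that mean smaller than those of a knockout clone. The difference of each gene from its wild-type mean had a root mean square of 0.22, 0.52, 0.52 and 0.42 log2 units in C12, C15, S04 and S36, against 0.12 to 0.13 in wild-type clones. Over genes of at least 10 CPM it was larger in each knockout clone, at 0.31, 0.71, 0.61 and 0.66, against 0.13 to 0.17 in wild-type clones. C12 was thus the knockout clone nearest to wild type in both sets of genes. The median difference over the 198 genes was 0.02, -0.05, 0.09 and 0.10 in C12, C15, S04 and S36, and -0.03 to 0.02 in wild-type clones. Divided only by library totals, without a composition factor, these medians were 0.08, -0.16, 0.22 and 0.21 in the knockout clones. On that scale the medians over all genes tested were 0.07, -0.16, 0.15 and 0.11 in the same clones. Over genes of at least 10 CPM they were 0.06, -0.17, 0.08 and 0.08.

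**Figure D3:**
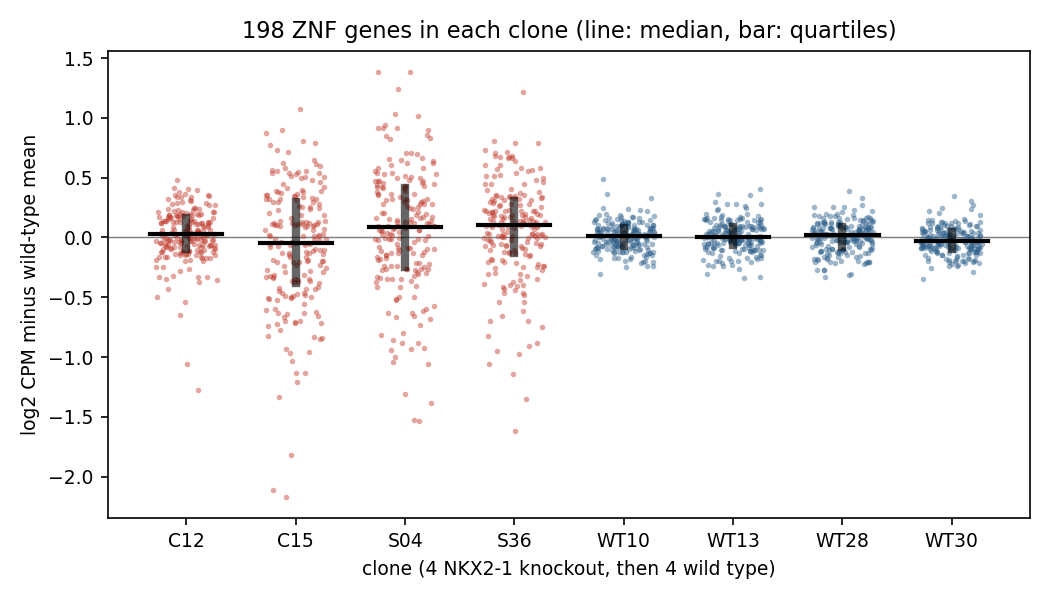
Log2 CPM of each of the 198 ZNF genes minus its mean over wild-type clones, in 4 knockout clones (red) and 4 wild-type clones (blue), with the median as a line and the quartiles as a bar. The medians lie near 0 in all clones, and the points spread most in C15 and S04.

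The widest genes among knockout clones were ZNF746, ZNF706, ZNF503, ZNF865, ZNF22 and ZNF66. ZNF746, a repressor known as a substrate of parkin, had 12.9, 2.56, 17.5 and 6.72 CPM in C12, C15, S04 and S36, against 13.6, 12.3, 13.0 and 10.8 CPM in WT10, WT13, WT28 and WT30. ZNF706 had 69.5, 15.02, 79.1 and 33.1 CPM in knockout clones, against 59.4, 57.1, 63.6 and 51.4 CPM in wild-type clones. In both, C15 and S36 were below every wild-type clone, and S04 was above every one. ZNF22, a short protein with 5 finger matches, was low in C15 and high in S04, with 119, 39.9, 197 and 89.7 CPM in knockout clones, against 99.3, 92.6, 99.01 and 88.8 CPM in wild-type clones. ZNF865 had instead its lowest value in S04, at 8.08 CPM beside 24.3, 28.9 and 26.5 CPM in C12, C15 and S36 and 17.9 to 25.9 CPM in wild-type clones. ZNF503, a developmental repressor, was lowest in C15, at 2.20 CPM, which rests on 6 counts.

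Between the knockout clones, 0 of the 198 genes differed between the C and S names by edgeR adjusted p, where 0.358% of all genes did, and 32 (16.2%) at an unadjusted p under 0.05, where 17.1% of all genes did. DESeq2 called 4, where 4.57% of all genes passed. These were ZNF66, ZNF814 and ZNF785, higher in C clones, and ZNF704, higher in S clones. ZNF66, a KRAB zinc finger gene, had 14.2 and 20.5 CPM in C12 and C15, 7.43 and 6.89 CPM in S04 and S36, and 17.4, 18.6, 19.5 and 24.5 CPM in the wild-type clones. The S clones were lowest of all 8, and the log2 difference of C minus S was 1.39 with an edgeR adjusted p of 0.0651. ZNF704 had 19.4 and 14.7 CPM in C12 and C15, 47.8 and 34.8 CPM in S04 and S36, and 15.8 to 22.4 CPM in wild-type clones, with C minus S at -1.11 and an adjusted p of 0.0667. Without C12, 8 genes were called, where 5.14% of all genes were, and without S36, 4, where 1.35% were. Without the filter on low counts 4 were called, where 2.43% were. Without C12 the C name is C15 alone, and a lone clone is assumed to vary like the rest.

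Taken alone against wild type, the S clones gave 17 calls among the 198 genes (8.59%), 9 higher and 8 lower, where edgeR called 14.5% of all genes (7.17% higher and 7.36% lower), and the C clones gave 0, where 0.0395% were called. At an unadjusted p under 0.05 the C clones gave 7 (3.54%), where 10.3% of all genes were called. ZNF66 fell by 1.62 on the log2 scale in the S clones (adjusted p 0.00417), ZNF827 by 1.24, ZNF16 by 0.95 and ZNF814 by 0.76. ZNF486 was higher by 1.25 (adjusted p 0.0174), ZNF704 by 1.03 (0.0106), ZNF367 by 0.94, ZNF510 by 0.77 and ZNF189 by 0.67. The corresponding differences of the C clones were -0.26 for ZNF66, -0.18 for ZNF16, 0.25 for ZNF814 and 0.32 for ZNF510. They were 0.36 for ZNF189, 0.46 for ZNF486, -0.08 for ZNF704 and 0.03 for ZNF367. These comparisons share the 4 wild-type clones. For ZNF827 the difference of C minus S was 0.15 with an adjusted p of 0.712.

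A coding sequence was found for 196 of the 198 genes, and a pattern search counted a median of 10 fingers, with 33 in ZNF462 as the most and 5 genes without a match. The KRAB pattern was present in 115 genes and missing in 81, although a diverged box can escape the pattern. The median log2 fold change was 0.05 with the KRAB pattern and 0.04 without. By clone, genes with the pattern had median differences from wild type of -0.0048, -0.13, 0.13 and 0.10 in C12, C15, S04 and S36, and genes without it 0.06, 0.02, -0.02 and 0.12. The 5 genes with no finger match had a median log2 fold change of 0.20, the 30 with 1 to 4 fingers -0.0035, those with 5 to 9 fingers 0.14, those with 10 to 14 fingers 0.04, and those with 15 or more 0.01.

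Chromosome 19 held 98 of the 198 genes, with a median log2 fold change of 0.03, equal to the 0.03 of the 727 other tested genes there. Split at gaps over 1.5 Mb, the 97 of them with a position formed 9 groups. The one from ZNF101 to ZNF254 (chr19:19668796-24129961), with 21 genes of which 20 had the KRAB pattern, had a median of 0.17, and its median difference was 0.42 in S04 and 0.12 in S36, but -0.04 in C12 and -0.20 in C15. It holds ZNF486 and ZNF66, which stood at 0.95 and -0.80, so genes of the same group stood on opposite sides of 0.

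On chromosome 9 all 5 genes were above 0, with a median log2 fold change of 0.55, beside 0.37 for the 444 other genes tested there, of which 370 were above 0. They were ZNF510 at 0.60, ZNF367 at 0.57, ZNF189 at 0.55, ZNF618 at 0.46 and ZNF462 at 0.09. The median over the 5 was 0.24, 0.41, 0.64 and 0.34 in C12, C15, S04 and S36, and that of the other genes of the chromosome 0.21, 0.39, 0.40 and 0.37. On chromosome 2 all 3 genes were below 0, with a median of -0.30 beside -0.31 for the 809 other genes. On both chromosomes the ZNF genes thus lay on the side of the other genes. On chromosome 20 they did not, since ZNF335 and ZNF217 stood at 0.03 and 0.19 where the 334 other genes had a median of -0.20. The copy number of these chromosomes was not tested. Chromosome 12 had all 7 of its genes above 0, with a median of 0.24 where the 633 other genes had 0.02. On chromosome 8, 4 of 6 were below 0, with ZNF696 at -0.67 and ZNF704 at 0.60, while the 395 other genes had a median of 0.02. None of the genes named here for a chromosome passed the edgeR test of all knockout against all wild-type clones.

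**Figure D4:**
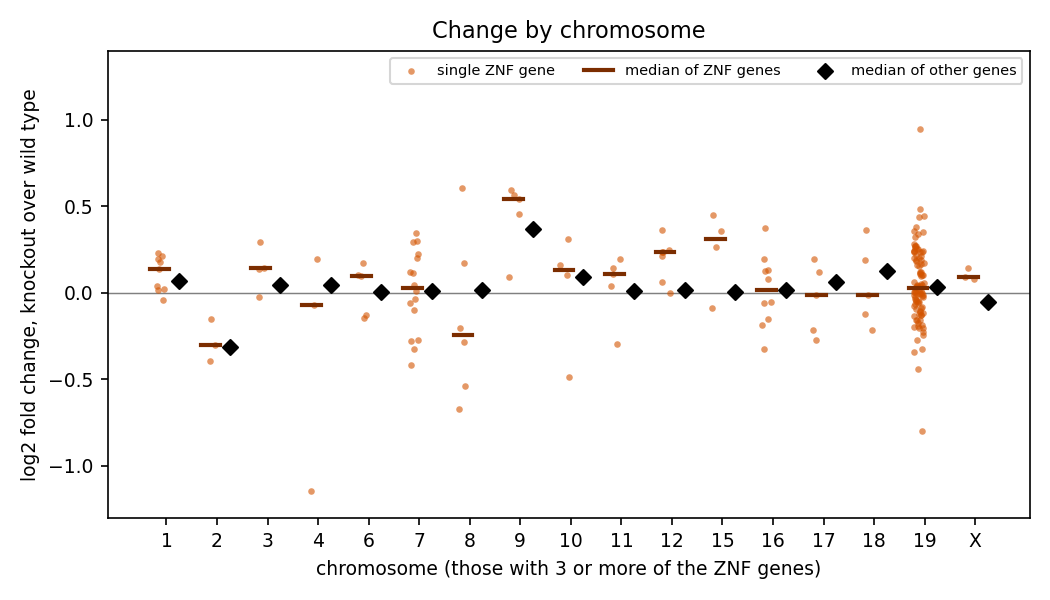
Log2 fold change of knockout over wild type for each of the ZNF genes (orange points) by chromosome, with their median (brown line) and the median of the other tested genes of the chromosome (black diamond). On chromosomes 2 and 9 both medians stand away from 0 on the same side, at -0.30 and -0.31 and at 0.55 and 0.37.

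Base composition of the transcript went with the differences of some clones. Across 196 genes, which are not independent of each other and share a library, Spearman's rho between GC content and the difference from wild type was -0.44 in S04 and 0.26 in C15, and 0.02 and -0.05 in C12 and S36. It was also -0.33 in WT10 and 0.19 in WT30. Over 7275 genes of at least 10 CPM it was -0.22 in S04, 0.17 in C15, -0.13 in C12, 0.03 in S36, -0.27 in WT10 and 0.21 in WT30, so the slopes in S04, C15, WT10 and WT30 had the same sign there. Among the 66 genes with the lowest GC, 33.5% to 40.8%, the median difference was 0.22 in S04 and -0.18 in C15. Among the 66 with the highest GC, 47.0% to 71.1%, it was -0.18 in S04 and 0.12 in C15. The KRAB pattern was in 48 of 66 genes of lowest GC and in 22 of 66 of highest GC. The part of base composition in the clone differences given above was not tested.

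**Figure D5:**
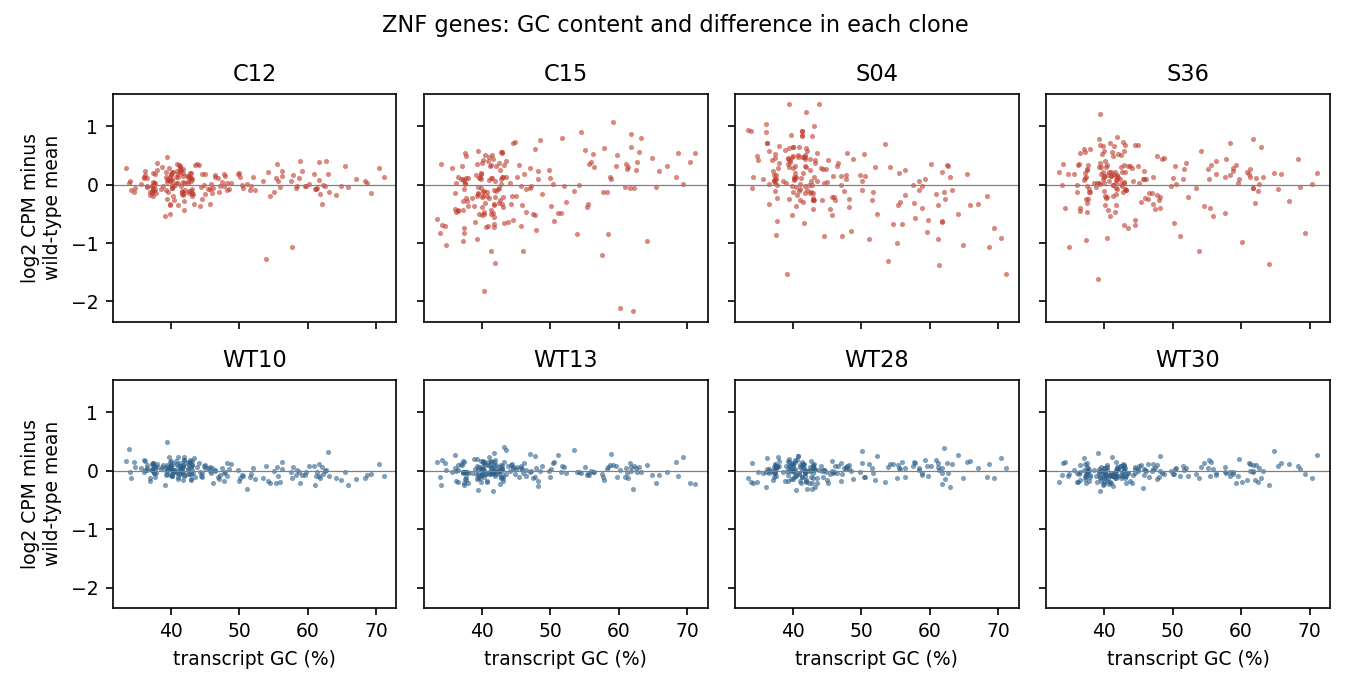
Log2 CPM minus the wild-type mean against the GC percentage of the transcript for 196 ZNF genes, in 4 knockout clones (red, top) and 4 wild-type clones (blue, bottom). The points slope down in S04 (rho -0.44) and up in C15 (rho 0.26), and stay near 0 at all GC contents in C12.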

How the data were processed

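The authors deposited raw counts per gene and clone, in 1 table of 61228 symbols. The submitters' processing notes name hg38 and the tools TopHat2, Subread, SAMtools and FastQC. Roles, versions, annotation and strand setting are not given in the sources used. Each library total is the sum of its deposited counts. CPM in the text is a count divided by that total and multiplied by 1000000.

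Genes passing filterByExpr (14243) were scaled with TMM factors and tested two-sided by quasi-likelihood in edgeR (version 4.0.16 in R 4.3.3), knockout over wild type, Benjamini-Hochberg adjusted over all of them at a threshold of 0.05. C and S clones were compared in a fit of 3 groups. Differences per clone are in log2 CPM with a prior count of 2. The permutation test used log2 of CPM plus 0.5. Alternatives were DESeq2 1.42.0, limma-voom (limma 3.58.1), other scaling, no low-count filter, each clone left out, C or S clones alone, other level thresholds, and thinning to the shallowest library. All 3 tools were tested on simulated counts. No 2 libraries of the same group agreed within sampling noise.

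The genes and the lists were chosen with earlier results of these data known. A count of 0 allows up to 3 counts, 1.10 CPM in C15 and 0.118 in C12, and covers counting error only. Genes named were those past the threshold, the 12 of highest level, those whose groups did not overlap, the 6 widest among knockout clones, the 4 largest each way of C minus S, 3 on each side of 10 CPM, and the role lists. Others, among them those called in S clones or named for a chromosome, were chosen after their values were seen. Positions, exon lengths and coding sequences came from GENCODE release 29 on hg38, which matched 195 of the 198 genes.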

Additional observations from a re-analysis of the deposited data

Results flagged for a closer look

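In 6 of 100 groups of 4 clones examined, 1 clone stood apart from the other 3 by Dixon's test at the 95% level, and chance flags about 5 of 100. Values are log2 CPM after TMM scaling. C15, the shallowest library, was the low one for ZNF281 at 6.14 (64.1 CPM, beside 132 to 157 in the other knockout clones), for ZNF266 at 3.17 (8.06 CPM, beside 17.7 to 18.3) and for ZNF503 at 1.34 (2.20 CPM, beside 9.16 to 11.2). ZNF24 was high in C12 at 7.71 (214 CPM, beside 144 to 170). In WT28, ZNF207 was low at 7.34 (157 CPM, beside 189 to 196 in the other wild-type clones) and ZNF302 was high at 4.43 (20.7 CPM, beside 17.8 to 18.7).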

How the results depend on the processing

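No paired analysis was possible because the replicate numbers only follow the order of the samples and pair no knockout clone with a wild-type clone. The log2 fold change of ZNF827 ran from -1.25 to -1.06 over 17 fits, with adjusted p from 2.71e-10 to 0.0972. It stayed below 0 in all of them and missed the threshold in 5, without each wild-type clone in turn (-1.13, -1.16, -1.13 and -1.19 without WT10, WT13, WT28 and WT30) and with C clones alone (-1.10). With 1 clone left out it ranged from -1.25 to -1.10. The count of ZNF genes called between knockout and wild type was 1, and it was 2 without a low-count filter, 2 with DESeq2, 0 with C clones alone, 17 with S clones alone and 0 to 1 with 1 clone left out. Between C and S clones it was 0, and it was 4 without a low-count filter, 4 with DESeq2 and 0 to 8 with 1 clone left out. Counts of the partner and family lists, 0 with all clones, ranged with 1 clone left out up to 1 for G9a, 3 for ZBTB and 1 for ZNF genes below 10 CPM. With library totals alone the medians over the ZNF genes were 0.0780 in C12, -0.16 in C15, 0.22 in S04, 0.21 in S36, 0.0648 in WT10 and -0.0313 in WT13. Over all genes tested they were 0.0688 in C12, -0.16 in C15, 0.15 in S04, 0.11 in S36, 0.0565 in WT10 and -0.0225 in WT13. Leaving out the TMM factor moves the genes of a clone by about the same amount. Thinning gave a median over the ZNF genes of -0.0225 in C15, and the cause of that shift was not tested. For the 49 other named genes, 726 of their values under an alternative moved by no more than the standard error, 49 moved by more, and 9 newly passed the threshold. The depth of C15, with a median count of 56 for these genes, limits what its values show.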

Other observations

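ZNF genes below the level of 10 CPM were measured too, and 184 of them were tested. Of these, 124 were above 0 and 60 below, with a median log2 fold change of 0.18, beside 0.05 for the 198 genes of higher level and 0.02 over all genes tested. By edgeR 0 passed the adjusted threshold, with 9 higher and 5 lower at an unadjusted p under 0.05, where 8.47% and 6.99% of all genes were. By limma-voom 0 passed, and by DESeq2 ZNF622 and ZNF484 did, where 3.66% of all genes passed. Within the 198 genes the median was 0.11 for the 88 between 10 and 20 CPM in wild-type clones, 0.04 for the 65 between 20 and 40 CPM and 0.01 for the 45 of 40 CPM or more. Choosing by wild-type level touches these medians, and its part was not tested.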
